A study of Rattus norvegicus with 48 samples.

Results

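The miR-130 and miR-301 family was measured as 3 mature miRNAs, rno-miR-130a-3p, rno-miR-130b-3p and rno-miR-301a-3p. They were picked by a rule on names that did not use their values, though earlier results of these data were known. They were 3 of the 763 mature rat miRNAs listed for every library and 3 of the 629 with at least 1 read. Small RNA was sequenced from 32 serum and 16 ulna bone samples of male ZDF rats (fa/fa) and of lean ZDF +/+ rats, called WT here, taken 12 weeks into treatment. ZDF rats lack a working leptin receptor in the whole body and become obese and diabetic, so leptin signalling, obesity and hyperglycaemia cannot be told apart in them. The placebo was water, and the agents were parathyroid hormone (PTH), insulin and anti-sclerostin, an antibody against an inhibitor of bone formation. In serum the placebo and PTH groups held 5 rats of each genotype, the anti-sclerostin groups 4 of each, and the insulin group 4 ZDF rats. Bone was taken in 4 groups of 4, with both genotypes on placebo and on PTH. By the study's methods all rats carried a surgical femur defect and ate a chow high in fat and carbohydrate from 11 weeks of age. The bones were from rats that also gave serum, except 2 of the 4 ZDF PTH bones, but the labels do not link them, so tissues were compared as independent groups.

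MiRNAs are short RNAs that guide Argonaute proteins to messenger RNAs, and bases 2 to 8 of the mature strand, the seed, do most of the pairing with a target. MiRNAs with the same seed are grouped in a family because they can bind the same sites. The miR-130 and miR-301 family is best known for repressing PPAR-gamma, the master transcription factor of fat cells, and for its work in endothelial and smooth muscle cells of blood vessels. In serum, miRNAs circulate in vesicles and protein complexes, and lysed blood cells add their own.

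The sequences show what the family shares and where its members part, with the seed in capitals and the mature strands printed from RefSeq (GRCr8). Of the 3 members, 2 matched a mature entry by name, and for rno-miR-301a-3p the hairpin of Mir301a is printed, with the 1 run that equals the seed in capitals. Rno-miR-301b-3p is shown because it was the only other carrier of this seed, which 3 of the 693 mature entries held.
rno-miR-130a-3p: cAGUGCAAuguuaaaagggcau
rno-miR-130b-3p: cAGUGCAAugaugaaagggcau
rno-miR-301b-3p: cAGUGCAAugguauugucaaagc
Mir301a hairpin: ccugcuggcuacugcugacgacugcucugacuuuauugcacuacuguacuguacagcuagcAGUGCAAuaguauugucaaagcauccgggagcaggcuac
Rno-miR-130a-3p and rno-miR-130b-3p differed at 2 of 22 bases, U11A and A13G, counted from the 5′ end with the base of rno-miR-130a-3p first. The first 10 bases were the same in both and in rno-miR-301b-3p. In the Mir301a hairpin, the stretch around the seed run differed from the whole of rno-miR-301b-3p at only 1 base. The authors' match to known miRNAs allowed 1 mismatch. How a read lying between such close sequences was assigned is not given in the sources used here. The splits between rno-miR-130a-3p and rno-miR-130b-3p, and between rno-miR-301a-3p and rno-miR-301b-3p, are uncertain to that extent.

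The family came from 3 places in the genome (GRCr8). Rno-miR-130a-3p lay at chr3:90229240-90229261 on the minus strand, in Mir130a, which overlapped Mir3590 in the annotation. Rno-miR-130b-3p lay at chr11:97384430-97384451 on the plus strand, and Mir130b started 347 bases after Mir301b. Both of these hairpins overlapped the gene 2610318N02Rikl. Mir301a lay at chr10:72422599-72422698 on the plus strand and overlapped Ska2 and Prr11.

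The serum libraries held 28015 to 205664 miRNA reads (median 86230) and the bone libraries 41627 to 1398702 (median 237030). MiRNA reads made up 0.529% to 4.09% of all reads in serum and 1.58% to 21.5% in bone. Levels are given as CPM, which are counts per 1000000 reads, scaled by the library's miRNA reads after TMM normalization within a tissue. All 3 mesenchymal markers (rno-miR-199a-3p, rno-miR-199a-5p and rno-miR-214-3p) summed to 12682 to 43986 CPM in bone against 222 to 2196 in serum, and the 4 erythrocyte markers to 7701 to 14194 in bone against 27948 to 375130 in serum. The 3 striated muscle markers summed to 46561 to 422850 CPM in the bone libraries, so muscle RNA was present in them. Bulk samples cannot tell fewer cells of a type from less RNA per cell, and serum levels cannot tell release from clearance.

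In serum, rno-miR-130a-3p was the most abundant of the 3. It lay between 1579 and 8772 CPM over the 32 serum libraries, with a median of 3469, and ranked 43 by mean level among 534 serum miRNAs with a read. Rno-miR-301a-3p, at 194 to 2890 CPM with a median of 1087, ranked 68. Rno-miR-130b-3p, at 136 to 3021 CPM with a median of 1044, ranked 69. Levels of different miRNAs carry different ligation efficiencies, so these ranks describe reads and not molecules.

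In bone, the order was steeper. Rno-miR-130a-3p had a median of 822 CPM (421 to 1799) over 16 libraries and ranked 82 of 603 miRNAs, and rno-miR-301a-3p had a median of 289 CPM (161 to 465) and ranked 127. Rno-miR-130b-3p had a median of 36.0 CPM (0 to 66.3) and ranked 234. It rested on 0 to 44 reads a library, and 1 WT PTH bone library had 0, which allows up to 3 reads. Changes of rno-miR-130b-3p in bone could therefore hardly be resolved.

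**Figure D1:**
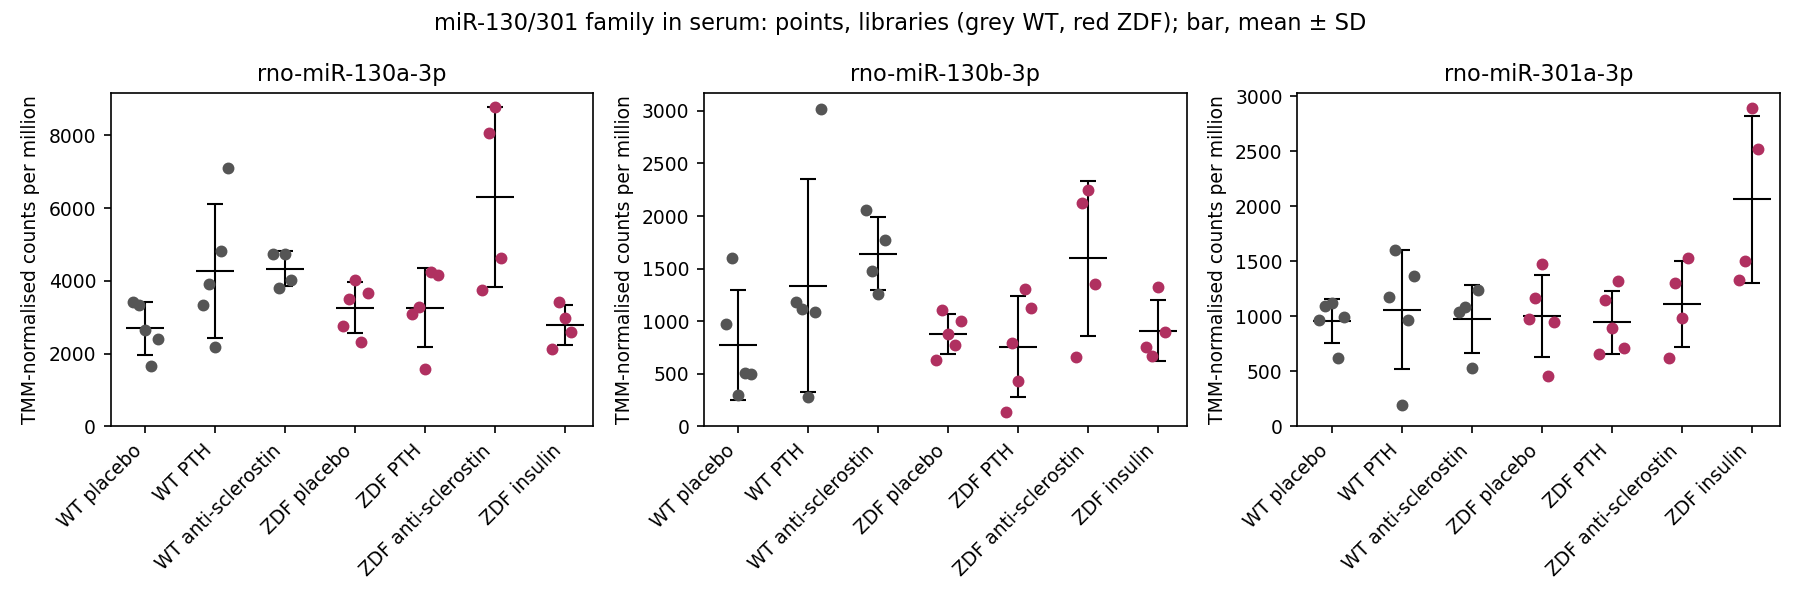
TMM-normalised CPM of each family member (y axis) in the 7 serum groups (x axis), with 1 point a library, grey for WT and red for ZDF, and the mean with SD as bars. Rno-miR-130a-3p reaches its highest values in ZDF rats given anti-sclerostin (3745 to 8772 CPM), and rno-miR-301a-3p in ZDF rats given insulin (1334 to 2890 CPM).

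Per miRNA read the members differed most between the tissues, but the size of these differences, and the direction of some, depended on what the reads were scaled to. Per 1000000 miRNA reads, rno-miR-130b-3p in placebo-treated WT rats was at 963, 1619, 361, 539 and 522 in serum and at 30.8, 48.8, 62.6 and 31.5 in bone. Every serum library lay above every bone library. The log2 fold change was 4.40 (standard error 0.57, FDR 8.28e-06, edgeR quasi-likelihood test with Benjamini-Hochberg adjustment).

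The same held for rno-miR-130b-3p in the other pairs, with log2 fold changes of 4.37 in placebo-treated ZDF rats, 5.51 in PTH-treated WT rats and 4.65 in PTH-treated ZDF rats (standard errors 0.43, 0.81 and 0.66), each called and each without overlap. Rno-miR-130a-3p was higher in serum by 1.67, 2.11, 2.25 and 2.40 on the log2 scale in WT placebo, ZDF placebo, WT PTH and ZDF PTH rats (standard errors 0.40, 0.32, 0.60 and 0.43). Rno-miR-301a-3p was higher by 1.87, 1.74, 1.89 and 2.16 (standard errors 0.42, 0.38, 0.62 and 0.43). All 12 values passed an FDR of 0.2, the largest FDR being 0.00727 for rno-miR-301a-3p in PTH-treated WT rats, where 1 serum library with 13 reads (244 per 1000000 miRNA reads) lay below all 4 bone libraries. Calling was the rule between these tissues, since 80.6%, 86.1%, 79.9% and 81.6% of the miRNAs tested passed in those groups, in both directions. The share of all miRNAs tested without overlap between the tissues is not given. The lack of overlap is therefore not shown to be particular to rno-miR-130b-3p.

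Scaled to all reads of a library, only rno-miR-130b-3p was still called higher in serum, though its libraries overlapped those of bone in 3 of the 4 groups. Its log2 fold changes were then 1.85 (FDR 0.0122), 1.52 (FDR 0.0301), 3.92 (FDR 0.000556) and 2.39 (FDR 0.00142) in WT placebo, ZDF placebo, WT PTH and ZDF PTH rats by edgeR. On this scale rno-miR-130a-3p was at −0.82, −0.87, 0.55 and −0.02, and rno-miR-301a-3p at −0.65, −1.24, 0.16 and −0.37, so the serum excess of both was lost or turned. The values of rno-miR-130a-3p and rno-miR-301a-3p in placebo-treated ZDF rats passed the threshold in the opposite direction (FDR 0.195 and 0.0641), as did rno-miR-130a-3p in placebo-treated WT rats (FDR 0.140). On this scale too most miRNAs tested passed, 86.5%, 83.7%, 72.8% and 84.2% in the same 4 groups. The scale moved the median of all miRNAs tested to between −3.10 and −1.87, and relative to that median rno-miR-130a-3p lay 1.75 to 2.93 higher, rno-miR-301a-3p 1.86 to 2.58 higher and rno-miR-130b-3p 4.42 to 5.79 higher.

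**Figure D2:**
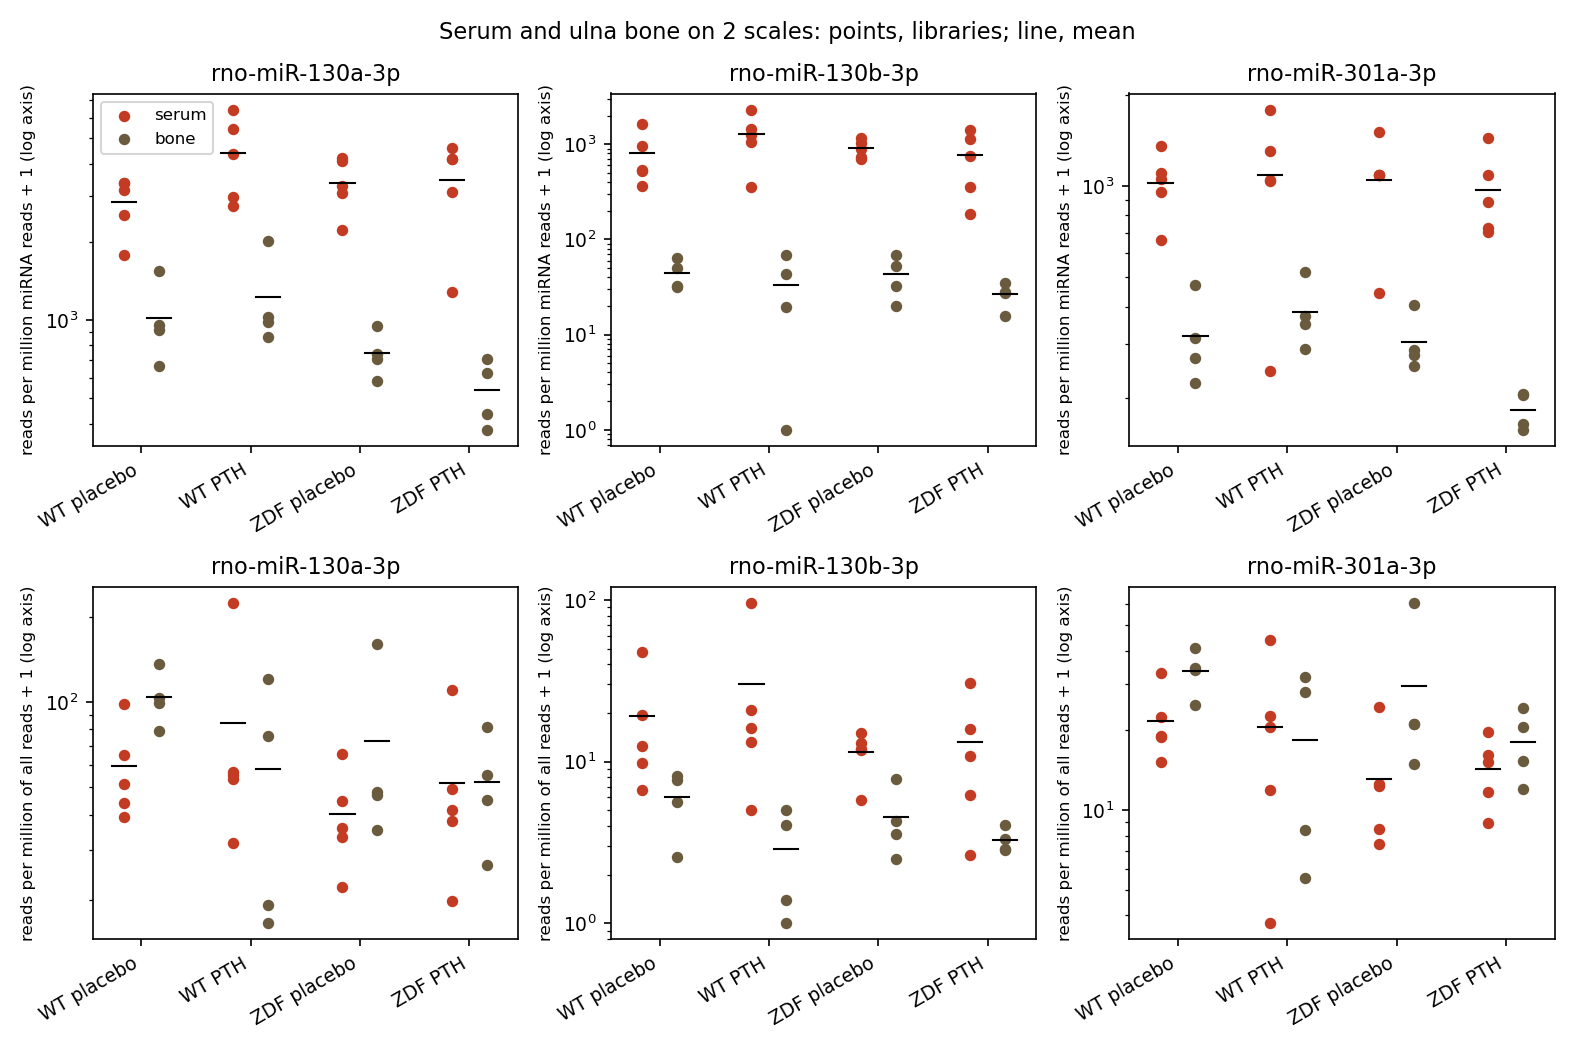
Reads of each member plus 1 (y axis, log scale) in serum and bone libraries of 4 groups (x axis), scaled to miRNA reads in the top row and to all reads in the bottom row (both per 1000000), with 1 point a library and a line at the mean. The tissues separate for all members in the top row, apart from 1 serum library of rno-miR-301a-3p in PTH-treated WT rats, while in the bottom row they overlap for every member except rno-miR-130b-3p in PTH-treated WT rats.

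The mix of the 3 members also differed between the tissues, and a ratio of 2 members within a library does not depend on the scale. Rno-miR-130b-3p reads amounted to 28.6%, 48.0%, 11.5%, 30.5% and 20.7% of rno-miR-130a-3p reads in the serum of placebo-treated WT rats and to 2.16%, 5.44%, 6.62% and 4.81% in their bone. No bone library reached the lowest serum library. The log2 ratio was 2.51 higher in serum (standard error 0.49, exact two-sided permutation p = 0.0159), and it was 2.30, 3.27 and 1.95 higher in ZDF placebo, WT PTH and ZDF PTH rats (exact p = 0.00794, 0.00794 and 0.0238). The groups did not overlap in ZDF placebo or WT PTH rats, while in ZDF PTH rats 1 serum library (4.59%) lay within the bone range of 3.70% to 9.45%. The WT PTH bone libraries held only 1, 0, 11 and 12 reads of rno-miR-130b-3p. In the library with 0 reads the ratio rests on the 0.5 reads added to each count, so the value of 3.27 is poorly resolved. The adjusted p over all 48 ratio comparisons ranged from 0.0762 to 0.114 for these 4, and the test cannot go below an exact p of 0.00794 with 5 against 4 libraries. The ratio of rno-miR-301a-3p to rno-miR-130a-3p differed between serum and bone by 0.19, −0.47, −0.58 and −0.23 on the log2 scale, with adjusted p-values of 0.117 to 0.674, and its groups overlapped except in placebo-treated ZDF rats.

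Within serum, the placebo-treated rats showed no call for the diabetic genotype. Rno-miR-130a-3p was at 2770, 3515, 4033, 2321 and 3664 CPM in ZDF rats and at 3423, 3345, 2639, 1675 and 2405 CPM in WT rats. The groups overlapped over most of their range. The log2 fold change was 0.20 (standard error 0.30, 95% interval −0.39 to 0.78, FDR 0.866 by edgeR). Rno-miR-130b-3p averaged 877 ± 188 CPM (SD, n = 5) in ZDF rats and 776 ± 525.7 in WT rats, with a log2 fold change of 0.14 (95% interval −0.62 to 0.91). Rno-miR-301a-3p was at 1006 ± 371 CPM in ZDF and 960 ± 200 in WT rats, with a log2 fold change of −0.01 (95% interval −0.68 to 0.66). The number of members called was 0 of 3, beside 6.10% of the 164 miRNAs tested. Scaled to all reads these values became −0.57, −0.78 and −0.77, where the median of all miRNAs tested was −0.87, and rno-miR-301a-3p then passed (FDR 0.162), as did 64.6% of the miRNAs tested.

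Insulin gave the 1 call of a family member in serum. Rno-miR-301a-3p was at 1334, 1507, 2890 and 2523 CPM in insulin-treated ZDF rats and at 979, 1164, 1479, 462 and 947 CPM in placebo-treated ZDF rats. The lowest insulin library lay below the highest placebo library, and the other 3 lay above all of them. Rno-miR-301a-3p was higher with insulin by 0.98 on the log2 scale (standard error 0.33, 95% interval 0.33 to 1.64, FDR 0.0815 by edgeR, exact permutation p = 0.0238). In this comparison 26.5% of the 151 miRNAs tested were called, and rno-miR-301a-3p had the 18th lowest p and the 6th highest fold change.

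The other members did not follow rno-miR-301a-3p. Rno-miR-130a-3p was at 2121, 3418, 2974 and 2603 CPM with insulin, within the placebo range but for 1 library, with a log2 fold change of −0.26 (95% interval −0.77 to 0.24, FDR 0.57). Rno-miR-130b-3p was at 753, 670, 1323 and 901 CPM, with a log2 fold change of 0.02 (95% interval −0.53 to 0.58, FDR 0.967). Rno-miR-301a-3p reads were 63.1%, 44.2%, 97.1% and 96.9% of rno-miR-130a-3p reads with insulin and 35.5%, 33.2%, 36.7%, 20.1% and 26.0% with placebo. These groups did not overlap, and the log2 ratio was 1.27 higher with insulin (standard error 0.32, exact permutation p = 0.00794, the smallest this design allows, adjusted p = 0.0762 over 48 ratio comparisons). The ratio of rno-miR-301a-3p to rno-miR-130b-3p was 1.02 higher on the log2 scale (exact permutation p = 0.0238, adjusted p = 0.114), again without overlap. Rno-miR-301a-3p made up 35.2% ± 7.07 of the reads of the 3 members with insulin (SD, n = 4), against 19.1% ± 4.197 with placebo (SD, n = 5).

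Erythrocyte markers moved with insulin too. All 4 of 4 (rno-miR-451-5p, rno-miR-144-3p, rno-miR-144-5p and rno-miR-486) were called higher, by 0.71 to 2.33 on the log2 scale, and their summed level was 238760 to 375130 CPM with insulin and 89211 to 170990 CPM with placebo. The log2 ratio of rno-miR-451-5p to rno-miR-23a-3p, a measure of red cell lysis in serum, was 3.18 to 3.79 with insulin and −0.49 to 1.41 with placebo. Other marker lists also held calls with insulin. Rno-miR-140-5p, 1 of 2 cartilage markers, was higher by 0.94 (FDR 0.129), while rno-miR-150-5p, 1 of 4 leukocyte markers, was at −1.27 (FDR 0.0646) and the liver marker rno-miR-122-5p at −1.37 (FDR 0.160) by edgeR. With the rno-miR-451-5p to rno-miR-23a-3p ratio as a covariate the log2 fold change of rno-miR-301a-3p was −0.12 ± 0.91 (standard error) with an FDR of 0.993 by edgeR, and 0 of the 151 miRNAs tested were called against 40 without it. Since the ratio separated the groups completely, insulin and erythrocyte RNA cannot be told apart here. Without the insulin library of 2890 CPM (replicate 3) the rno-miR-301a-3p value was 0.84 (FDR 0.276), and with all serum groups in 1 fit it was 1.03 (FDR 0.222). Scaled to all reads it was 0.67 (FDR 0.300), where the median of all miRNAs tested was −0.37 and 33 of the 151 were called.

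**Figure D3:**
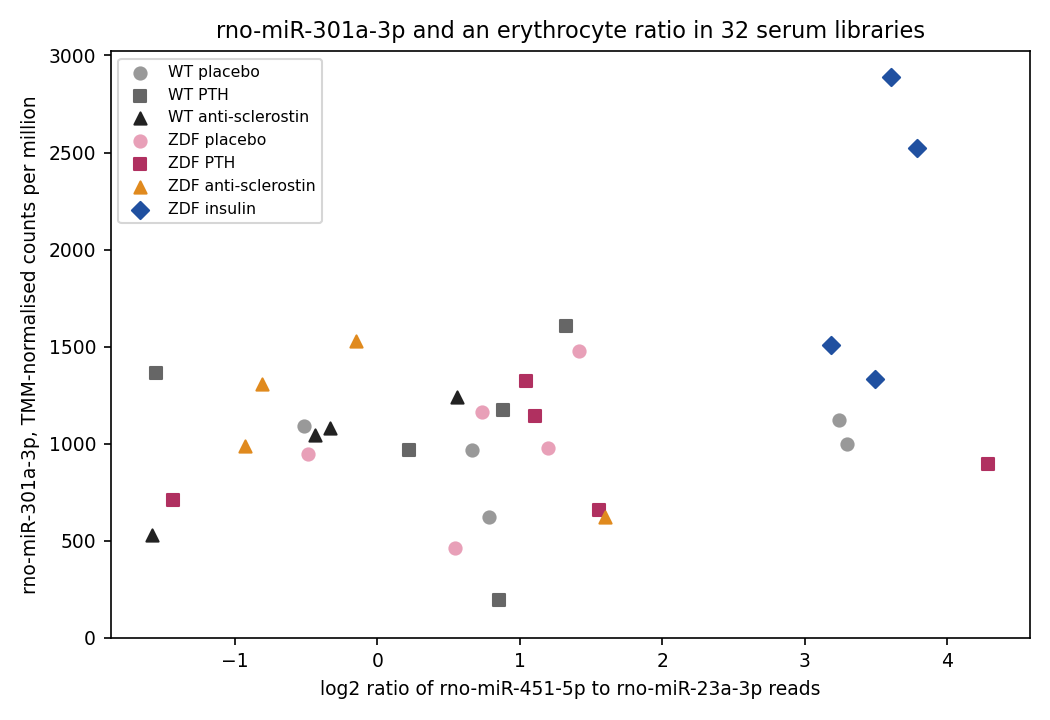
CPM of rno-miR-301a-3p (y axis) against the log2 ratio of rno-miR-451-5p to rno-miR-23a-3p reads (x axis) in 32 serum libraries, with 1 point a library and a colour and shape for each group. The 4 insulin libraries lie at ratios of 3.18 to 3.79, and 3 libraries of other groups lie at ratios of 3.24 to 4.29 with rno-miR-301a-3p at 895 to 1121 CPM.

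Outside the insulin group 3 serum libraries also had a high ratio, 2 of placebo-treated WT rats and 1 of a PTH-treated ZDF rat. With TMM, rno-miR-301a-3p was at 1121 and 998 CPM in the WT libraries and at 895 CPM in the ZDF library, below all 4 insulin libraries. This order depended on the scale. Without TMM normalization the WT libraries were at 1350 and 1051 CPM, above the lowest insulin library (1002 CPM). Scaled to all reads they were at 21.4 and 17.8, above the insulin libraries at 16.2 and 14.8. The ZDF library stayed below all 4 insulin libraries on both scales (726 and 10.7). These 3 libraries were picked out after their values were seen, and no test was made on them.

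Anti-sclerostin gave the highest serum levels of rno-miR-130a-3p, short of a call. In ZDF rats it was at 3745, 8064, 8772 and 4639 CPM, against 2321 to 4033 CPM with placebo. Only the lowest treated library fell inside the placebo range. The log2 fold change was 1.04 (standard error 0.35, 95% interval 0.36 to 1.72, FDR 0.24 by edgeR, exact permutation p = 0.0159). Rno-miR-130b-3p, at 659, 2126, 2249 and 1357 CPM, stood at 0.97 on the log2 scale (standard error 0.39, 95% interval 0.21 to 1.73, FDR 0.378). Rno-miR-301a-3p, at 624, 1307, 986 and 1530 CPM, had a log2 fold change of 0.25 (95% interval −0.54 to 1.04, FDR 0.831). On the scale of all reads the values were 1.70, 1.65 and 0.63 (FDR 0.567, 0.567 and 0.672 by edgeR), where the median of all miRNAs tested was 0.51 and 0.00% were called.

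Of the 158 miRNAs tested in ZDF rats given anti-sclerostin, 1.27% were called, and 0 of the 3 members. The call for rno-miR-130a-3p turned on the method, since it passed with DESeq2 (adjusted p = 0.036, beside 6.96% of miRNAs, where rno-miR-130b-3p also passed at 0.13), with independent filtering after the fit (FDR 0.197, beside 5.38%), with RLE size factors (FDR 0.167, beside 4.43%) and with the newer edgeR dispersion method (FDR 0.190, beside 5.06%). Without the treated library of 3745 CPM (replicate 1, also the serum library with the fewest miRNA reads) rno-miR-130a-3p and rno-miR-130b-3p both passed, at 1.19 and 1.18 on the log2 scale (FDR 0.0789 each), beside 13.0% of the miRNAs then tested. With the rno-miR-451-5p to rno-miR-23a-3p ratio as a covariate they were at 0.68 (FDR 0.738) and 0.39 (FDR 0.928). The denominator of that ratio, rno-miR-23a-3p, was the serum miRNA most correlated with rno-miR-130a-3p (Spearman 0.73). This fit therefore cannot separate red cell lysis from variation that rno-miR-130a-3p shared with rno-miR-23a-3p. The erythrocyte markers were lower with anti-sclerostin by 0.33 to 0.81 on the log2 scale with 0 of 4 called, while 1 of 2 endothelial and 1 of 2 smooth muscle markers were called lower, and the part of those in the result was not tested.

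In WT rats anti-sclerostin left rno-miR-130a-3p at 4747, 3804, 4739 and 4036 CPM, above all 5 placebo libraries (1675 to 3423 CPM). The log2 fold change was 0.51 (standard error 0.32, 95% interval −0.12 to 1.14, FDR 0.522 by edgeR, exact permutation p = 0.0238), and 2.92% of the 171 miRNAs tested were likewise higher without overlap. By edgeR 0.00% of these miRNAs were called, with 18 at an unadjusted p under 0.05, and DESeq2 called 5. Rno-miR-130b-3p, at 2058, 1479, 1257 and 1774 CPM against 299 to 1604 CPM, had a log2 fold change of 0.94 (95% interval 0.10 to 1.77, FDR 0.459). Without the highest placebo library (replicate 2, 1604 CPM) this became 1.46 and passed (FDR 0.148), beside 4.71% of miRNAs, and with the rno-miR-451-5p to rno-miR-23a-3p ratio as a covariate it was 0.45 (FDR 0.984). Rno-miR-301a-3p had a log2 fold change of −0.19 (95% interval −0.92 to 0.54). The response to anti-sclerostin did not differ detectably between ZDF and WT rats, with interaction terms of 0.54, 0.05 and 0.44 on the log2 scale for rno-miR-130a-3p, rno-miR-130b-3p and rno-miR-301a-3p (95% intervals −0.32 to 1.40, −1.08 to 1.19 and −0.58 to 1.47, FDR 0.822 to 0.961). On the scale of all reads these terms were 1.3, 1.05 and 1.10, where the median of all miRNAs tested was 0.63, and none of the 3 was called.

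PTH gave no call of a family member in serum. In ZDF rats the log2 fold changes against placebo were 0.10, −0.13 and −0.01 for rno-miR-130a-3p, rno-miR-130b-3p and rno-miR-301a-3p (95% intervals −0.56 to 0.76, −1.07 to 0.81 and −0.74 to 0.71). In WT rats they were 0.60, 0.74 and 0.04 (95% intervals −0.09 to 1.29, −0.29 to 1.78 and −0.87 to 0.94). The PTH groups spread widely, and rno-miR-130b-3p ranged from 136 to 1309 CPM in ZDF and from 284 to 3021 CPM in WT rats. Neither PTH comparison called any miRNA by edgeR at an FDR of 0.2 (0.00% of 154 and of 170 tested, with 4 and 2 at an unadjusted p under 0.05 and 0 called by DESeq2 in both). The response to PTH in serum differed between ZDF and WT rats by −0.60, −0.96 and −0.14 on the log2 scale (95% intervals −1.48 to 0.28, −2.40 to 0.47 and −1.23 to 0.95), and none of the 3 was called. Between genotypes, ZDF rats differed from WT rats by −0.38, −0.81 and −0.15 under PTH and by 0.69, 0.13 and 0.37 under anti-sclerostin, with FDR values of 0.864 to 0.996 by edgeR. Of the 158 and 161 miRNAs tested there 0.00% were called, with 5 and 11 at an unadjusted p under 0.05, and DESeq2 called 0 and 6.

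Ordered by group mean, the 7 serum groups ran from 6305 down to 2698 CPM for rno-miR-130a-3p, with both anti-sclerostin groups on top and placebo-treated WT rats at the bottom. For rno-miR-130b-3p both anti-sclerostin groups were again on top (1642 CPM in WT and 1598 CPM in ZDF rats), and ZDF PTH was lowest at 760 CPM. For rno-miR-301a-3p insulin was on top at 2063 CPM, and the other 6 groups lay between 946 and 1112 CPM. Neighbours in these orders had exact permutation p-values of 0.0857 to 0.96 before and 0.771 to 0.96 after adjustment over 27 neighbour pairs of both tissues. Neighbours in a sorted order are the closest groups by mean, so these values do not show that the groups were alike.

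**Figure D4:**
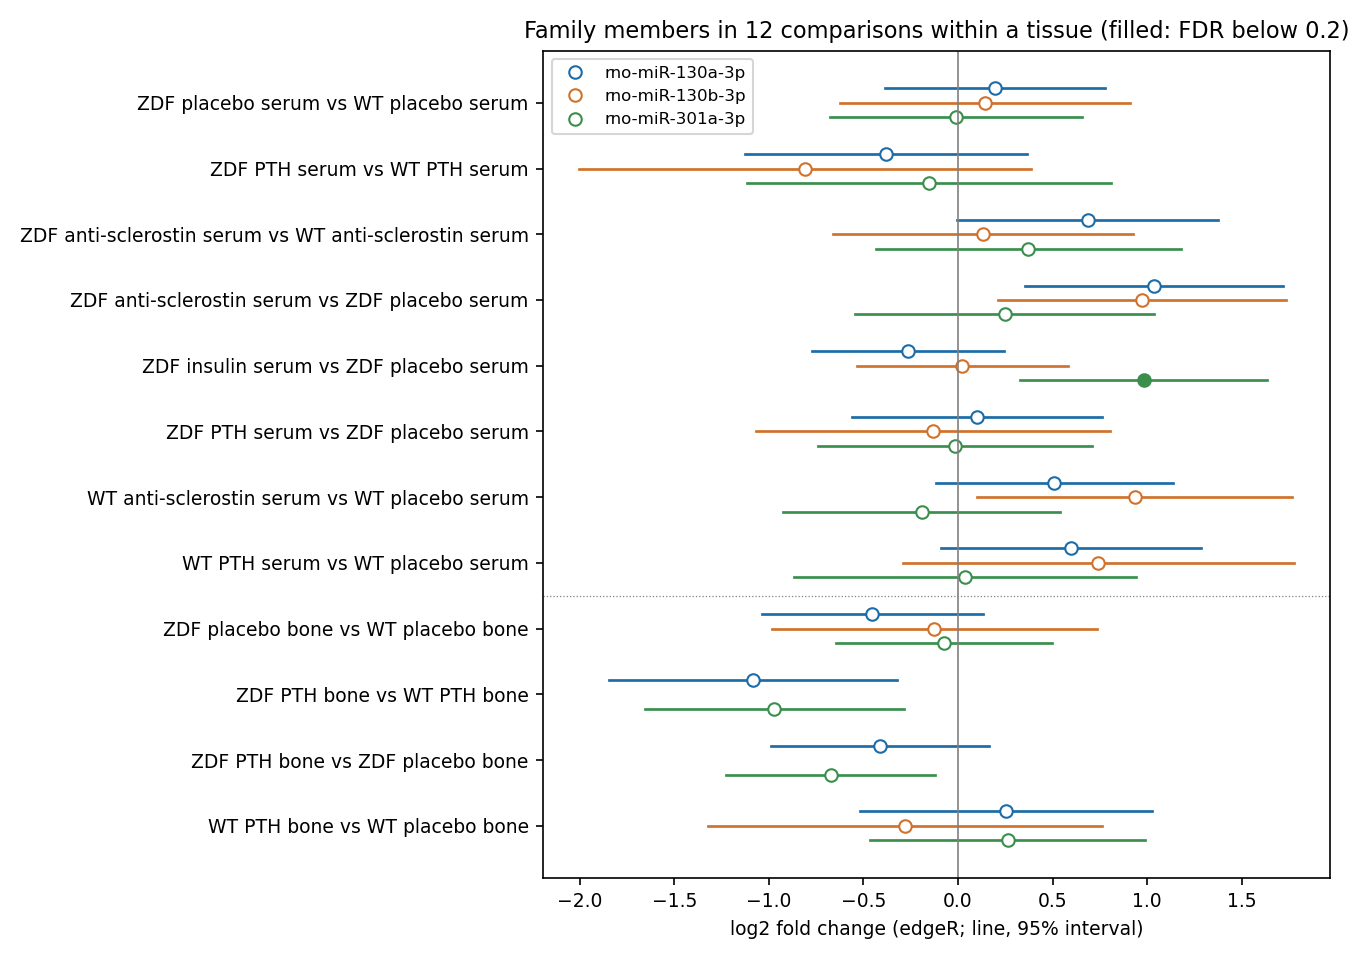
Log2 fold changes (x axis, line for the 95% interval) of the 3 members in 12 comparisons within a tissue (y axis, serum above and bone below the dotted line), filled where the FDR was below 0.2. The 1 filled point is rno-miR-301a-3p with insulin at 0.98, and rno-miR-130b-3p is not shown in 2 bone comparisons, where it had too few reads for the filter.

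In bone, PTH-treated ZDF rats had the lowest levels of rno-miR-130a-3p and rno-miR-301a-3p per miRNA read. Rno-miR-130a-3p was at 446, 421, 666 and 657 CPM in PTH-treated ZDF rats and at 938, 1074, 1799 and 826 CPM in PTH-treated WT rats. Rno-miR-301a-3p was at 161, 181, 217 and 190 CPM in these ZDF rats and at 379, 314, 465 and 298 CPM in these WT rats. For both miRNAs every ZDF library lay below every WT library, as it did for 5.61% of the 214 miRNAs tested. The WT libraries of 938 and 1074 CPM held only 47 and 41 reads of rno-miR-130a-3p, and 19 and 12 of rno-miR-301a-3p. Counting error alone puts 12 reads at 6.20 to 21.0, so this separation rests in part on few reads. The log2 fold changes were −1.08 (standard error 0.39, 95% interval −1.84 to −0.32) and −0.97 (standard error 0.35, 95% interval −1.66 to −0.29), each with an FDR of 0.286 by edgeR and an exact permutation p of 0.0286, the smallest that 4 against 4 allows.

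Neither passed the threshold, which 3.27% of the miRNAs tested in PTH-treated bones did, but some other settings moved them across it. With DESeq2 the adjusted p was 0.0969 for rno-miR-130a-3p and 0.103 for rno-miR-301a-3p, beside 11.3% of miRNAs called. With independent filtering rno-miR-130a-3p had an FDR of 0.198, beside 7.89% called, and with all bone groups in 1 fit the FDR was 0.184 and 0.186, beside 4.94%. Without ZDF PTH replicate 4 both passed, at −1.24 and −1.03 (FDR 0.160 and 0.172), beside 11.7% of miRNAs, and without WT PTH replicate 4 rno-miR-130a-3p did (−1.28, FDR 0.187), beside 7.55%. Scaled to all reads the log2 fold changes were −0.15 and −0.03, where the median of all miRNAs tested was 1.02, and miRNA reads were 1.58% to 7.23% of all reads in PTH-treated WT bones and 6.79% to 12.6% in PTH-treated ZDF bones. The 3 striated muscle markers summed to 105230 to 180470 CPM in these ZDF bones and to 46561 to 68669 CPM in these WT bones, and 1 of the 3 was called higher. The 4 leukocyte markers ran from −1.59 to 0.84 on the log2 scale, and 1 of them, rno-miR-142-3p, was called lower (−1.52, FDR 0.189 by edgeR). Their summed level was 3662 to 5997 CPM in ZDF and 3603 to 7167 CPM in WT bones. The part of either list in the result was not tested. Rno-miR-130b-3p, at 15.3 to 37.9 CPM in ZDF and 0 to 60.1 CPM in WT rats, had too few reads for the filter (exact permutation p = 0.8).

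Against placebo-treated ZDF bones, PTH-treated ZDF bones had rno-miR-301a-3p at a log2 fold change of −0.67 (standard error 0.28, 95% interval −1.22 to −0.12, FDR 0.678 by edgeR, exact permutation p = 0.0286). The placebo libraries were at 281, 350, 338 and 249 CPM, all above the PTH libraries, as for 0.930% of the 215 miRNAs tested, of which 0.00% were called by edgeR and 13 had an unadjusted p under 0.05, with 1 called by DESeq2. Rno-miR-130a-3p was at 694, 938, 791 and 572 CPM with placebo, which overlapped the PTH libraries, and had a log2 fold change of −0.41 (95% interval −0.99 to 0.17). In WT bones PTH gave log2 fold changes of 0.26 for rno-miR-130a-3p, −0.28 for rno-miR-130b-3p and 0.26 for rno-miR-301a-3p, with intervals that all held 0, beside 5.41% of 222 miRNAs called (12, but 89 without WT placebo replicate 1 and 0 on leaving out any 1 of 5 other libraries). Scaled to all reads these became −0.86, −1.38 and −0.89, where the median of all miRNAs tested was −1.23. The interaction of PTH with genotype in bone was −0.67, −0.39 and −0.93 on the log2 scale for rno-miR-130a-3p, rno-miR-130b-3p and rno-miR-301a-3p (95% intervals −1.65 to 0.30, −1.83 to 1.05 and −1.83 to −0.03), with FDR values of 0.747 to 0.903 by edgeR. For rno-miR-301a-3p the normal interval left out 0, but the unadjusted p by edgeR was 0.0553. By group mean both miRNAs ran from PTH-treated WT bones (1159 and 364 CPM) through WT and ZDF placebo bones down to PTH-treated ZDF bones (548 and 187 CPM). Between placebo-treated and PTH-treated ZDF bones, neighbours in this order, rno-miR-301a-3p had the smallest exact permutation p that 4 against 4 allows (0.0286). Adjusted over 27 neighbour pairs it was still 0.771, the lowest in this order. A pair that separated alone could therefore not pass, and the adjusted values do not show that neighbours were alike.

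Placebo-treated bones showed no call for genotype either. Rno-miR-130a-3p was at 1352, 852, 982 and 817 CPM in WT bones, against 572 to 938 CPM in ZDF bones, a log2 fold change of −0.45 (95% interval −1.03 to 0.13, FDR 0.474). Rno-miR-130b-3p and rno-miR-301a-3p had log2 fold changes of −0.13 and −0.08 (FDR 0.925 each), and 2.55% of the 235 miRNAs tested were called (6, but 87 without WT placebo replicate 1). The ratio of rno-miR-301a-3p to rno-miR-130a-3p separated the genotypes, at 40.7%, 37.3%, 43.0% and 43.7% in ZDF bones and 30.7%, 29.4%, 32.7% and 33.5% in WT bones. This log2 ratio was 0.38 higher in ZDF bones (standard error 0.07, exact permutation p = 0.0286, the smallest that 4 against 4 allows, adjusted p = 0.117 over 48 ratio comparisons). Under PTH the same ratio did not separate the genotypes in bone, at 28.9% to 43.3% in ZDF and 25.9% to 41.1% in WT rats. The log2 difference there was 0.09 (adjusted p = 0.769 by the exact permutation test). In serum the ratio was lower in placebo-treated ZDF rats by 0.29 on the log2 scale, with overlapping groups and an adjusted p of 0.365 by the exact permutation test.

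**Figure D5:**
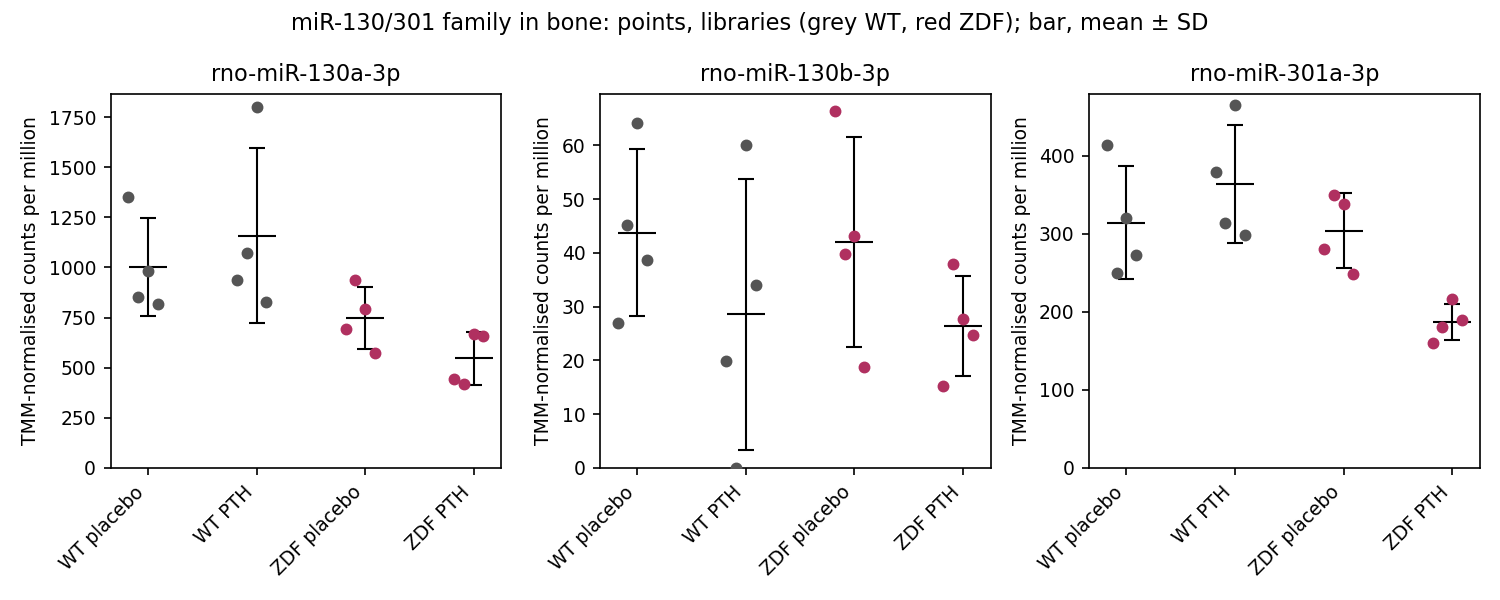
TMM-normalised CPM of each member (y axis) in the 4 bone groups (x axis), with 1 point a library, grey for WT and red for ZDF, and the mean with SD as bars. The PTH-treated ZDF libraries are the lowest group for rno-miR-130a-3p (421 to 666 CPM) and rno-miR-301a-3p (161 to 217 CPM), and rno-miR-130b-3p does not exceed 66.3 CPM.

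Across libraries the members did not vary as 1 unit. Over the 32 serum libraries, which include all groups and share the same normalization, rno-miR-130a-3p and rno-miR-130b-3p had a Spearman correlation of 0.77, rno-miR-130b-3p and rno-miR-301a-3p of 0.40, and rno-miR-130a-3p and rno-miR-301a-3p of 0.20. Over the 16 bone libraries the closest pair was another, with 0.88 for rno-miR-130a-3p and rno-miR-301a-3p and 0.24 and 0.30 for the pairs with rno-miR-130b-3p, whose reads were few. Among 195 serum miRNAs compared, the patterns most like rno-miR-130a-3p were those of rno-miR-23a-3p (0.73), rno-miR-22-3p (0.72) and rno-miR-361-5p (0.71). Those most like rno-miR-130b-3p were rno-miR-361-5p (0.83), rno-miR-24-2-5p (0.82) and rno-miR-223-3p (0.80), the last a marker of myeloid cells. Those most like rno-miR-301a-3p were rno-miR-15a-5p (0.71), rno-miR-320-3p (0.61) and rno-miR-93-5p (0.57). In bone, among 240 miRNAs, rno-miR-140-5p, a cartilage miRNA, was most like rno-miR-130a-3p (0.85), rno-miR-324-5p most like rno-miR-130b-3p (0.86) and rno-miR-29a-5p most like rno-miR-301a-3p (0.87). The median correlation with all miRNAs compared lay between −0.06 and 0.14 for each member and tissue.

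The closest relatives of the family were rare in these libraries. Rno-miR-301b-3p, which shares the seed and lies beside Mir130b, had 121 reads over 26 of the 32 serum libraries and 19 reads over 11 of the 16 bone libraries. The other strands of the hairpins, rno-miR-130a-5p, rno-miR-130b-5p, rno-miR-301a-5p and rno-miR-301b-5p, had 0 to 50 reads in all serum libraries and 2 to 22 in all bone libraries. All 5 were too low for the filter in either tissue, so the family's reads, as the authors assigned them, came almost wholly from its 3 members. The split between rno-miR-301a-3p and rno-miR-301b-3p is uncertain, as said above.

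A further 5 related miRNAs carry most of the seed 1 base out of step. They are shown by 1 example from each side, with the longest run shared with the seed in capitals.
rno-miR-19b-3p: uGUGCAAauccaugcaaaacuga
rno-miR-148a-3p: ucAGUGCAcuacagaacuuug
Rno-miR-19a-3p and rno-miR-19b-3p belong to the miR-17-92 cluster, known for promoting cell growth, and rno-miR-148a-3p, rno-miR-148b-3p and rno-miR-152-3p form a family of their own. In each of the 12 comparisons within a tissue 0 of these 5 were called, beside 0.00% to 26.5% of all miRNAs tested. Between serum and bone, rno-miR-19a-3p and rno-miR-19b-3p were called higher in serum per miRNA read in all 4 groups, by 2.07 to 2.96 and 2.06 to 2.82 on the log2 scale. Rno-miR-152-3p was called lower in serum in all 4, by −2.09 to −1.15 on the log2 scale, and rno-miR-148a-3p in 3 of them. Calls were the rule here, with 79.9% to 86.1% of all miRNAs tested. Scaled to all reads rno-miR-19a-3p and rno-miR-19b-3p turned to −0.61 to −0.31 in the ZDF groups and were called higher only in PTH-treated WT rats (1.51 and 1.27), while rno-miR-152-3p stayed lower in all 4 groups (−5.10 to −3.25). On that scale 72.8% to 86.5% of all miRNAs tested were called. With insulin rno-miR-19a-3p stood at 0.56 on the log2 scale (standard error 0.36, FDR 0.343 by edgeR), beside the 0.98 of rno-miR-301a-3p.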

How the data were processed

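Small RNA libraries of 48 samples (32 serum, 16 ulna bone) were analysed. The authors trimmed reads with cutadapt and mapped them with bowtie and miRDeep2 to Rnor_6.0, allowing 2 mismatches, and then to rat miRBase miRNAs, allowing 1 mismatch. They deposited raw read counts per mature miRNA for each library, without pooling. They also deposited RPM (reads per 1000000 of all reads of a library), used here only for library totals and as another scale. Added spike-in controls (up to 10 a library) and the RPM per miRNA reads were left out.

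Counts were tested with edgeR 4.0.16 (limma 3.58.1, R 4.3.3) by filterByExpr, TMM and the quasi-likelihood test on the groups compared. Benjamini-Hochberg adjustment ran over all miRNAs tested, with calls at an FDR below 0.2, the threshold of the study's methods. There were 16 comparisons of 2 groups and 3 interaction tests. Exact two-sided permutation tests used log2(CPM + 1), and ratios of members used reads + 0.5. Intervals of 95% are normal intervals from the standard errors, so with few rats a group they are narrower than the edgeR test allows. Alternatives included DESeq2 1.42.0, other scalings and filters, and leaving out each library. The scale of all reads and the ratios of members were added after the data were seen. The family and the lists of markers and related miRNAs were chosen with earlier results of these data known. The text names the 3 members in every comparison, up to 4 related miRNAs a comparison and the 3 miRNAs most correlated with each member. On simulated data for placebo serum, 67.5% of miRNAs changed by 1 on the log2 scale were found, and 48.8% for placebo bone. Of the calls, 13.2% and 17.3% were false. There, 40 and 32 of 172 serum miRNAs and 41 and 45 of 228 bone miRNAs were changed by 1 and 2. In the data 6.10% and 2.55% were called. The adjustment is stricter when fewer miRNAs change, so the rates found may be too high for these data. Replicates were numbered in accession order. All 82 pairs of libraries of 1 group differed by more than counting noise. Intervals and floors from counts cover counting error only.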

Additional observations from a re-analysis of the deposited data

How the results depend on the processing

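Over all results and settings that kept every library, 572 values kept their direction and side of the threshold, 38 turned, 12 gained a call and 5 lost one. The cause of these changes was not tested. No paired analysis was possible because the labels give every library a number of its own, which no other group shares. In serum of placebo-treated ZDF against WT rats, rno-miR-301a-3p turned to 0.037 with RLE factors, 0.025 with library totals, 0.037 with DESeq2, 0.069 with all groups fitted and 0.095 with the rno-miR-451-5p covariate, and rno-miR-130b-3p to −0.021 with that covariate. In ZDF against WT rats given anti-sclerostin, rno-miR-130b-3p turned to −0.026 with a filter of 1 read, with or without independent filtering, and to −0.021 with all groups. In ZDF rats, anti-sclerostin against placebo gained calls of rno-miR-130a-3p with RLE factors (1.03), DESeq2 (1.03), independent filtering (1.04) and the newer edgeR dispersions (1.04), and of rno-miR-130b-3p with DESeq2 (0.96). With insulin, library totals gave rno-miR-130a-3p a call at −0.55 and turned rno-miR-130b-3p to −0.30. Rno-miR-301a-3p lost its call with all groups (1.03), at an FDR of 0.05 (0.98) and on all reads (0.67), and turned to −0.12 with the covariate. Rno-miR-301a-3p in serum turned to 0.024 for PTH in ZDF rats with a filter of 1 read, and to 0.010 with all groups and 0.10 with the covariate for anti-sclerostin in WT rats. In PTH-treated bones, ZDF against WT, calls were gained for rno-miR-130a-3p with DESeq2 (−1.09), independent filtering (−1.08) and all groups (−1.09), and for rno-miR-301a-3p with DESeq2 (−0.98) and all groups (−0.97). The anti-sclerostin interaction of rno-miR-130b-3p turned to −0.12 with RLE factors and DESeq2, −0.079 with a filter of 1 read and −0.20 with all groups.

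On the scale of all reads, rno-miR-130a-3p and rno-miR-130b-3p in ZDF against WT placebo serum turned to −0.57 and −0.78, and rno-miR-301a-3p gained a call at −0.77. Rno-miR-130b-3p turned to −0.28 with insulin and to 0.21 with PTH in ZDF serum. Rno-miR-301a-3p turned to 0.13 with PTH in ZDF serum and −0.085 in WT serum. PTH in WT bone turned to −0.86 for rno-miR-130a-3p and −0.89 for rno-miR-301a-3p. Serum against bone turned or lost its call for rno-miR-130a-3p (−0.82, −0.87, 0.55 and −0.015 in WT placebo, ZDF placebo, WT PTH and ZDF PTH rats) and for rno-miR-301a-3p (−0.65, −1.24, 0.16 and −0.37). The PTH interaction turned to 0.22 for rno-miR-301a-3p in serum and to 0.38, 0.73 and 0.16 for rno-miR-130a-3p, rno-miR-130b-3p and rno-miR-301a-3p in bone.

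With 1 library left out at a time, 16 of 55 results turned at least once. For placebo serum, ZDF against WT, values ran from −0.019 to 0.61 for rno-miR-130b-3p and −0.12 to 0.23 for rno-miR-301a-3p. For ZDF against WT rats they ran from −0.37 to 0.065 for rno-miR-301a-3p under PTH and −0.12 to 0.39 for rno-miR-130b-3p under anti-sclerostin. For anti-sclerostin in ZDF rats they ran from 0.82 to 1.19 for rno-miR-130a-3p and 0.73 to 1.18 for rno-miR-130b-3p. For insulin they ran from −0.14 to 0.17 for rno-miR-130b-3p and 0.81 to 1.19 for rno-miR-301a-3p. For PTH in ZDF serum they ran from −0.075 to 0.32, −0.52 to 0.062 and −0.24 to 0.11 for rno-miR-130a-3p, rno-miR-130b-3p and rno-miR-301a-3p, and in WT serum from −0.14 to 0.33 for rno-miR-301a-3p. For anti-sclerostin in WT rats they ran from 0.76 to 1.46 for rno-miR-130b-3p and −0.27 to 0.14 for rno-miR-301a-3p. For placebo bone they ran from −0.44 to 0.092 for rno-miR-130b-3p and −0.19 to 0.10 for rno-miR-301a-3p, and for PTH-treated bone from −1.28 to −0.81 for rno-miR-130a-3p and −1.12 to −0.85 for rno-miR-301a-3p. The interactions ran from −0.64 to 0.17 for rno-miR-130b-3p and −0.10 to 0.55 for rno-miR-301a-3p with anti-sclerostin, −0.41 to 0.054 for rno-miR-301a-3p with PTH in serum, and −0.59 to 0.15 for rno-miR-130b-3p with PTH in bone.

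With every library kept, the number of miRNAs called ranged from 0 to 59 for insulin (40 in the report), from 0 to 24 for anti-sclerostin in ZDF rats (2), from 6 to 106 for placebo serum (10), from 0 to 35 for placebo bone (6), from 3 to 24 for PTH-treated bone (7) and from 0 to 55 for PTH in WT bone (12). With 1 library left out it ranged in the same order from 4 (without insulin replicate 3) to 59, from 0 to 22 (without ZDF anti-sclerostin replicate 1), from 8 to 17, from 0 to 87 (without WT placebo bone replicate 1), from 3 to 25 (without ZDF PTH bone replicate 4) and from 0 to 89 (without WT placebo bone replicate 1). Rno-miR-130b-3p in bone, at 0 to 44 reads, and the shallowest serum library, at 28015 miRNA reads, limit what could be detected.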

Other observations

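Summed over the 3 members, the family stood at 4434 ± 1280 CPM in placebo-treated WT serum and 5144 ± 1150 CPM in placebo-treated ZDF serum (SD, n = 5 each). It was highest in ZDF rats given anti-sclerostin, at 9015 ± 3328 CPM (SD, n = 4), and the bone groups lay between 761 and 1552 CPM. Rno-miR-130a-3p made up 61.1% of the family's reads in placebo-treated WT serum, 63.5% in placebo-treated ZDF serum and 49.0% with insulin. In bone it made up 68.2% to 74.1% in the group means, and rno-miR-130b-3p 1.76% to 3.82%. No test was made on these sums.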
